A study of Homo sapiens with 10 samples.

Results

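The small leucine-rich matrix proteoglycans examined here are the 10 genes DCN, LUM, BGN, FMOD, OGN, PRELP, ASPN, OMD, KERA and EPYC, taken by symbol from the 23228 genes of a read count table. All 10 were listed, and 3 of them, DCN, LUM and BGN, had enough reads for a test across all genes. The reads come from cells labelled RD, an established human rhabdomyosarcoma line, grown in RPMI with 10% serum, in 5 groups of 2 libraries. Transfected cells received 10 nM of a nonspecific siRNA (also labelled scrambled), of NRAS siRNA 1 or of NRAS siRNA 2 by lipofection and were collected at 48 h. Other cells were kept for 24 h in 300 nM SCH772984, a drug that blocks ERK1 and ERK2, or in the solvent DMSO, with no transfection named in the labels. The NRAS siRNAs and SCH772984 act at different steps of 1 route, since NRAS is a small GTPase that signals to ERK through the RAF and MEK kinases. The comparisons ask how the family responds to each intervention against its own control. No label states whether the replicates were separate cultures, so the p-values describe the spread among these libraries, which may be technical.

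Small leucine-rich proteoglycans are secreted proteins whose curved leucine-rich repeats bind collagen and set the width and spacing of collagen fibrils in connective tissue. Decorin (DCN) and biglycan (BGN) carry chondroitin or dermatan sulfate chains and also bind growth factors such as TGF-beta and receptors such as EGFR, MET and TLR4. Asporin (ASPN) is their close relative. Lumican (LUM), fibromodulin (FMOD), keratocan (KERA) and osteomodulin (OMD) form a branch that can carry keratan sulfate, to which PRELP, a binder of basement membranes, also belongs. Osteoglycin (OGN) and epiphycan (EPYC) form a further branch, known from bone and growth plate. The read counts describe transcripts. With whole cultures, a change in the number of cells that express a gene and a change in RNA per cell cannot be told apart.

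The first sequences shown ask whether reads of these relatives can be mistaken for each other. Among all pairs of the 10 longest reading frames, from the principal GENCODE 29 transcripts, the longest identical stretch was 18 bases, shared by DCN and BGN. It starts at position 823 of the DCN reading frame and 847 of the BGN reading frame, counted from 1 at the first base of the start codon.

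DCN and BGN shared run: cacttggacaacaacaag

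LUM and FMOD shared 16 bases, starting at reading frame positions 371 and 488.

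LUM and FMOD shared run: accacaacaacctgac

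Of the overlapping stretches of 50 bases cut from the transcripts, 0 occurred in transcripts of other genes for 8 members, DCN and LUM among them. The share was 1.15% for BGN and 1.46% for PRELP. Read length is not given in the sources used here, and reads that did not align uniquely were not counted to a gene.

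Promoter sequences were compared for members with an entry among 35116 RefSeq windows (GRCh38.p14), each the 250 bases before a transcript start. They were found for 6 members, BGN, FMOD, OGN, PRELP, ASPN and EPYC. The window of BGN, the member with the most reads, and that of EPYC, the member with the most reads among the 7 that were not tested, are shown as examples of a window rich in G and C and of one poor in them. Capitals mark the letters of a GC box (GGGCGG), of a TATA box (TATAAA) and of an AP-1 element (TGANTCA) on either strand.

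BGN, chrX:153494730-153494979, plus strand: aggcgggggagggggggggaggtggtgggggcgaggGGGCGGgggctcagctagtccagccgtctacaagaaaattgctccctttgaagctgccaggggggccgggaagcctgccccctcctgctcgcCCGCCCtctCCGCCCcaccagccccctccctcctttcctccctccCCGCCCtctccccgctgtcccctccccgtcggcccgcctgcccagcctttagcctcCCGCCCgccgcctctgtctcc

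EPYC, chr12:91004973-91005222, minus strand: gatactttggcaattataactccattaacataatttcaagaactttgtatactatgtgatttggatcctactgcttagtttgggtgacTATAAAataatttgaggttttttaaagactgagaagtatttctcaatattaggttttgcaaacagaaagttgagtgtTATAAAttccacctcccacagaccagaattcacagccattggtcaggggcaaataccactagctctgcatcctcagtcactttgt

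The BGN window was 74.0% G and C, above 87.7% of all windows, and held 16 CpG dinucleotides against a median of 11 for all windows. It held GGGCGG at 5 places, 214, 122, 113, 77 and 21 bases before the start, and TATAAA at 0. By contrast the EPYC window was 35.6% G and C, above 6.19% of all windows, held 0 CpG, and held TATAAA at 162 and 85 bases before the start. The windows of ASPN (32.4% G and C) and OGN (36.0% and 31.2% at its 2 starts) lay near EPYC, and those of FMOD (51.6%) and PRELP (52.8%) lay below the median of 58.0%. Of all windows, 42.6% held GGGCGG, 10.7% held TATAAA and 6.57% held TGANTCA. The letters TGANTCA, and CCGGAA, letters found in many ETS sites, were in 0 of the windows of these 6 members, and CCGGAA was in 14.5% of all windows. A match or its absence describes these letters in this window only.

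As a check of the labels, NRAS itself gave 220 and 272 CPM (counts per 1000000 reads of the TMM-scaled library size) with the nonspecific siRNA, 52.4 and 52.1 with NRAS siRNA 1, and 51.0 and 48.0 with NRAS siRNA 2. Libraries held 23224063 to 30768970 counts over genes, and a count of 0 in a library allows up to 3 counts, which equal 0.0951 to 0.132 CPM. The muscle regulators that usually mark this tumour type were low in the DMSO and SCH772984 libraries. MYF5 had 0 counts, MYOG 0 to 2, MYOD1 2 to 5, PAX7 3 to 6 and MYF6 0 to 2, and the muscle enzyme CKM had 2 to 8. In contrast PAX3 had 304 to 393 counts and desmin (DES) 520 to 895. Of 18 muscle markers, 5 reached a mean of 1 CPM with DMSO and 8 with SCH772984. These markers alone do not bear out the label, and the identity of the cells was not tested.

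Per transcript length, BGN was the most abundant member in every group and LUM came next. In DMSO the mean level was 33.3 ± 5.35 CPM per kilobase for BGN, 0.735 ± 0.201 for LUM and 0.0206 ± 0.0292 for DCN (SD, n = 2). DCN could not be ranked there against FMOD at 0.0181 ± 0.00681 (SD, n = 2), since its library counts were 2 and 0 and its 3 principal transcripts span 1930 to 7156 bases. The levels of BGN, LUM and DCN exceeded 87.1%, 43.6% and 27.4% of the 19718 genes with a known length. With SCH772984 they were 41.6 ± 4.69, 7.29 ± 1.90 and 2.68 ± 0.258 CPM per kilobase (SD, n = 2), above 90.7%, 62.9% and 51.1% of those genes. EPYC followed at 0.211 ± 0.0163 and OMD at 0.0900 ± 0.0485 CPM per kilobase with SCH772984 (SD, n = 2). The 7 members below the filter stayed at 9 counts or fewer in each library.

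**Figure D1:**
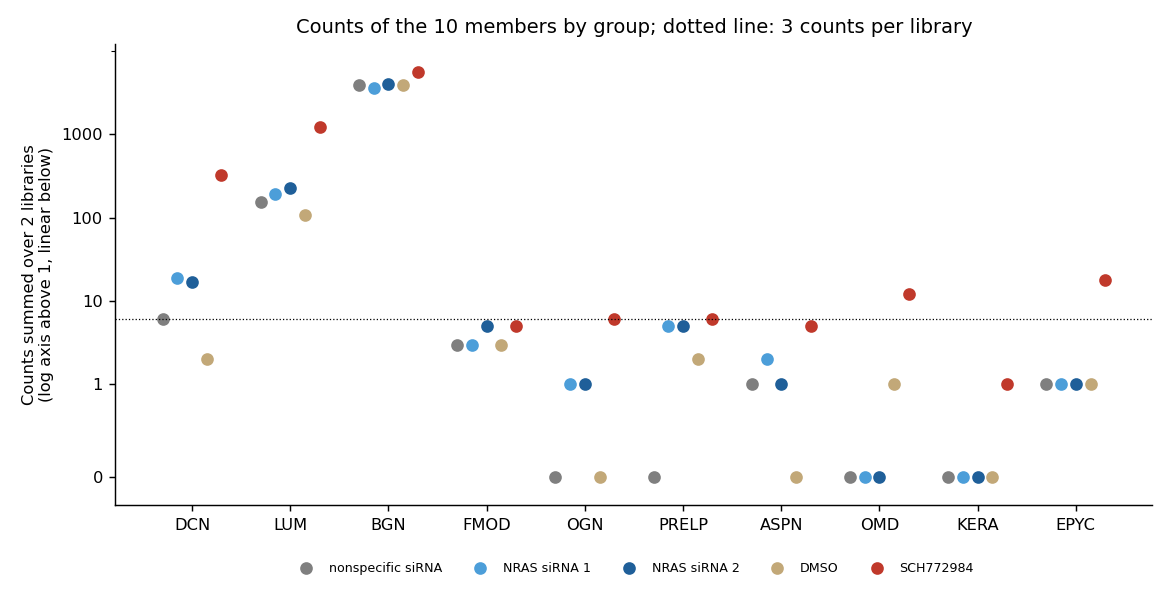
Counts of the 10 members summed over the 2 libraries of each group (log axis above 1, linear below); the dotted line is 3 counts per library. BGN lies above 3000 in every group by this sum, LUM between 107 and 1231, DCN between 2 and 319, and the other 7 members reach at most 18.

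DCN and LUM rose with SCH772984. DCN had 2 counts in the DMSO libraries and 319 in the SCH772984 libraries, and LUM had 107 and 1231. BGN, the dominant member, had a ratio of 1.26 and did not pass the test, and the 7 scarce members had too few counts for a test. In the quasi-likelihood test of edgeR, with a threshold of 0.05 on the Benjamini-Hochberg adjusted p over all tested genes, 2 of the 3 tested members rose. Of these, DCN could enter the test only by being high with SCH772984, so LUM is the call that the filter on low counts did not favour. In the same fit 28.0% of all 14761 tested genes passed the threshold, 13.2% upward and 14.8% downward. DESeq2 also called DCN and LUM and did not call BGN.

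Decorin is the archetype of the family and holds growth factors in the matrix. DCN had 2 and 0 counts with DMSO (0.0880 and 0 CPM) and 140 and 179 counts with SCH772984 (5.33 and 6.11 CPM). The groups did not overlap, and both SCH772984 libraries lay above all 8 others, the next being 0.422 CPM with NRAS siRNA 1. For 32.8% of tested genes both SCH772984 libraries lay above both DMSO libraries, and the share above all 8 others was not counted. The ratio of summed counts was 140.8, with an exact 95% counting interval of 38.7 to 1168, wide because DMSO supplied only 2 counts. The fitted log2 fold change was 6.98 (SE 0.53, adjusted p = 1.96e-05 in edgeR's quasi-likelihood test), the sixth highest of all tested genes. DCN passed the filter on low counts only through the SCH772984 libraries, so it could enter the test only by being higher there. The size rests on the DMSO libraries: the fitted value was 5.98 without DMSO replicate 2, and 10.30 without DMSO replicate 1, where the remaining library is at 0 and the fitted value is no bound.

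Lumican regulates fibril assembly in cornea, skin and tendon. LUM had 60 and 47 counts with DMSO (2.64 and 1.78 CPM) and 470 and 761 with SCH772984 (17.9 and 26.0 CPM). The inhibitor libraries again lay above all 8 others, whose highest was 4.12 CPM with NRAS siRNA 2, and SCH772984 replicate 2 was the higher of the pair. Both lay above both DMSO libraries, as they did for 32.8% of tested genes, and the share above all 8 others was not counted. LUM rose by 3.32 on the log2 scale (SE 0.27, adjusted p = 3.00e-05, edgeR), 9.97-fold, and ranked 70 from the top among the tested genes. The ratio of summed counts was 10.2 (95% counting interval 8.33 to 12.5). Leaving out any library of this comparison gave 3.02 to 3.62.

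Biglycan shares its chain type with decorin and can signal through Toll-like receptors once released. BGN had 2022 and 1866 counts with DMSO (89.0 and 70.8 CPM) and 2839 and 2699 with SCH772984 (108.0 and 92.1 CPM). Both SCH772984 values exceeded both DMSO values, as they did for 32.8% of tested genes, but the gap between the nearest libraries was smaller than the spread within either group. The log2 fold change was 0.32 (SE 0.16, adjusted p = 0.154, edgeR) and did not pass the threshold. With the replicate number as a block it was 0.33 with an adjusted p of 0.0395, in a fit that called 38.3% of genes, though no label says that the numbers pair the libraries. Its counting interval, 1.21 to 1.31 around a ratio of 1.26, covers read sampling only.

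**Figure D2:**
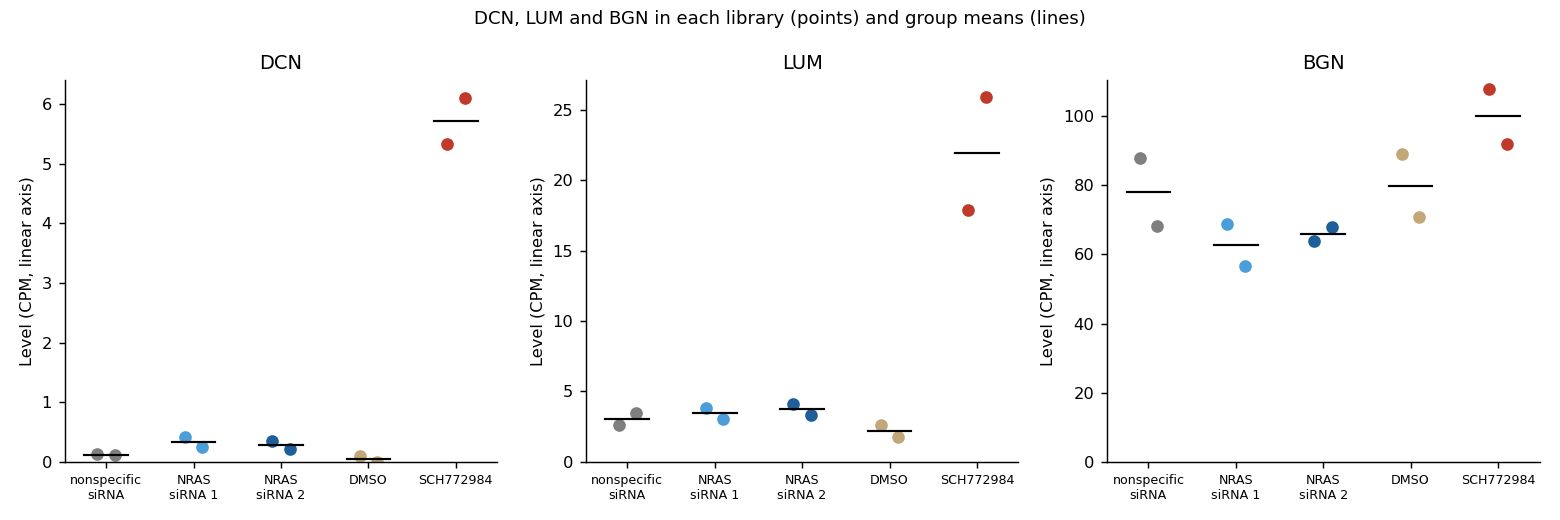
CPM of DCN, LUM and BGN in each of the 10 libraries (points) with group means (lines), on linear axes that start at 0. The SCH772984 points stand apart for DCN (5.33 and 6.11) and LUM (17.9 and 26.0), while those of BGN (108.0 and 92.1) lie close to the DMSO points (89.0 and 70.8).

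The remaining branch members were near the limit of detection. EPYC, from cartilage, had 0 and 1 counts with DMSO and 9 and 9 with SCH772984, a ratio of 15.9 (95% counting interval 2.51 to 662). OMD, from mineralised tissue, had 0 and 1 counts with DMSO and 8 and 4 with SCH772984, a ratio of 10.6 (1.57 to 452.8). In the other 6 libraries EPYC had 0 or 1 count and OMD had 0. OGN had 0 counts with DMSO and 5 and 1 with SCH772984, for which the 95% counting interval of the ratio starts at 1.04. ASPN, a binder of collagen and calcium, had 0 counts with DMSO and 2 and 3 with SCH772984, with an interval that starts at 0.809 and so includes equal levels. PRELP had 1 and 1 counts with DMSO and 4 and 2 with SCH772984, a ratio of 2.65 (0.474 to 26.8). FMOD, a fibril regulator of tendon, had 1 and 2 counts with DMSO and 4 and 1 with SCH772984, a ratio of 1.47 (0.286 to 9.47). KERA, the corneal member, had 1 count in 1 SCH772984 library and 0 in the other 9 libraries, which at this depth does not separate absence from a very low level.

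Taken as counts, 7 of these 7 members had a greater share of reads with SCH772984, as did 56.8% of 4291 genes below the filter with a count in these libraries. For 5 of the 7, all but FMOD and KERA, both SCH772984 libraries lay above both DMSO libraries, against 18.6% of those genes. With no filter on low counts, EPYC rose by 3.74 on the log2 scale (adjusted p = 0.0328, edgeR), in a fit of 20206 genes in which 21.3% were called and 11.2% were called upward. In that fit OMD had an adjusted p of 0.136, OGN 0.199 and ASPN 0.233.

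The make-up of the family's transcripts thus differed between groups. Per transcript length, BGN supplied 94.3 to 97.8% of member reads in the 8 libraries without inhibitor, and 83.4 and 76.4% with SCH772984. LUM supplied 1.97 to 4.86% without inhibitor and 11.0 and 17.2% with it. DCN supplied 0 to 0.657% without inhibitor and 4.63 and 5.71% with it. For each of the 3 genes the SCH772984 libraries lay outside the range of the other 8, and how often this holds for other genes was not counted. The shares of a library add up to a fixed total, so the 3 are not separate results. The BGN share was lower although its summed counts had a ratio of 1.26 to DMSO. The LUM to BGN ratio per length was 0.0201 to 0.0515 without inhibitor and 0.132 and 0.225 with it. All 10 members together held 60.3 to 91.8 CPM without inhibitor and 132.4 and 124.8 CPM with it. These shares are given as a description, with no test.

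**Figure D3:**
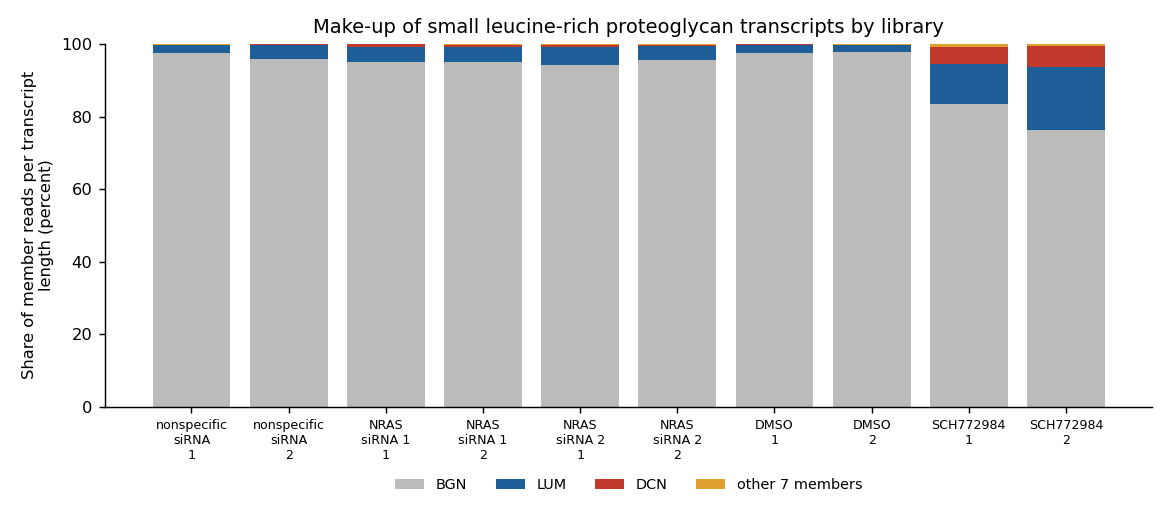
Share of member reads per transcript length (percent) held by BGN, LUM, DCN and the other 7 members in each library. BGN holds at least 94.3% in the 8 libraries without SCH772984 and 83.4 and 76.4% in the 2 with it, where LUM and DCN take up the difference.

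Neither NRAS siRNA changed a tested member at the threshold. The edgeR count was 0 of 3 for NRAS siRNA 1, NRAS siRNA 2 and the mean of both, and DESeq2 also gave 0, while 2.07%, 6.43% and 7.95% of all tested genes were called in the edgeR fits. At an unadjusted p under 0.05 edgeR's quasi-likelihood test had 1 of 3 members for NRAS siRNA 1, 0 of 3 for NRAS siRNA 2 and 1 of 3 for the mean of both, DCN in each case. Both siRNA comparisons share the nonspecific siRNA libraries, so their values are given side by side and are not independent.

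DCN had 3 and 3 counts with the nonspecific siRNA (0.124 and 0.115 CPM), 12 and 7 with NRAS siRNA 1 (0.422 and 0.252 CPM), and 11 and 6 with NRAS siRNA 2 (0.349 and 0.214 CPM). All 4 NRAS siRNA libraries lay above both controls. For comparison, 22.0% of tested genes had both NRAS siRNA 1 libraries above both controls, and 26.4% had both NRAS siRNA 2 libraries above them. The log2 fold change was 1.47 (SE 0.64, adjusted p = 0.266) for siRNA 1 and 1.22 (SE 0.65, adjusted p = 0.258) for siRNA 2 in edgeR. With counts this low the ratios had wide counting intervals, 1.09 to 8.67 for siRNA 1 and 0.899 to 7.40 for siRNA 2.

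LUM had 63 and 90 counts with the nonspecific siRNA (2.61 and 3.45 CPM), 109 and 84 with NRAS siRNA 1 (3.83 and 3.03 CPM), and 130 and 94 with NRAS siRNA 2 (4.12 and 3.35 CPM). The groups overlapped in both comparisons. Log2 fold changes were 0.18 (SE 0.27, adjusted p = 0.785) and 0.30 (SE 0.27, adjusted p = 0.504, edgeR). BGN had 2126 and 1779 counts with the nonspecific siRNA (88.0 and 68.1 CPM), 1954 and 1576 with NRAS siRNA 1 (68.7 and 56.8 CPM), and 2017 and 1911 with NRAS siRNA 2 (64.0 and 68.0 CPM). The lower nonspecific library, at 68.1 CPM, lay below the higher NRAS siRNA 1 library and only just above the higher NRAS siRNA 2 library. BGN had log2 fold changes of -0.31 (SE 0.16, adjusted p = 0.344) and -0.24 (SE 0.16, adjusted p = 0.357, edgeR). These values rest on the nonspecific siRNA libraries: without replicate 1 they were -0.09 and -0.03, and without replicate 2 they were -0.49 and -0.42. Of the 7 scarce members, PRELP had 0 counts in both nonspecific libraries, 3 and 2 with NRAS siRNA 1, and 4 and 1 with NRAS siRNA 2. The 95% counting intervals of its ratios start at 0.820 and 0.773 and so include equal levels.

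Between the 2 NRAS siRNAs, edgeR called 0 of 3 members (0.427% of tested genes were called), with 0 at an unadjusted p under 0.05. The log2 differences, siRNA 1 minus siRNA 2, were 0.25 for DCN, -0.12 for LUM and -0.07 for BGN, each below its SE of 0.51, 0.26 and 0.16. DESeq2 called 0 and gave no adjusted p for DCN and LUM. Between the control groups, nonspecific siRNA against DMSO, edgeR called 0 of 3 members (0.379% of tested genes were called), with 0 at an unadjusted p under 0.05, and DESeq2 called 0, giving no adjusted p for DCN. The log2 differences were 1.45 (SE 1.01) for DCN, 0.46 (SE 0.29) for LUM and -0.03 (SE 0.16) for BGN. These controls differ in both transfection and time of collection, whose parts cannot be told apart.

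The response to SCH772984 and the mean response to the NRAS siRNAs differed for DCN and LUM when the difference itself was tested. DCN passed the filter on low counts only through the SCH772984 libraries, which favoured such a difference for it in advance. As siRNA response minus inhibitor response, the log2 difference was -5.63 for DCN (SE 1.09, adjusted p = 0.0173) and -3.08 for LUM (SE 0.36, adjusted p = 0.00144, edgeR). For BGN it was -0.60 (SE 0.21, adjusted p = 0.114). Of all tested genes 7.30% passed this test, 4.57% with a lower siRNA response. The adjusted p of DCN was 0.0781 without nonspecific siRNA replicate 1 and 0.0600 without replicate 2, so that its call needs both of these libraries. The DCN difference was -4.61 without DMSO replicate 2 and -8.96 without DMSO replicate 1, where the remaining DMSO library is at 0. BGN had adjusted p-values of 0.0433 with no filter on low counts and 0.0231 with the replicate block, in fits that called 7.90% and 16.1% of genes. Kind of agent, transfection and time of collection all differ between the 2 responses and cannot be told apart.

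**Figure D4:**
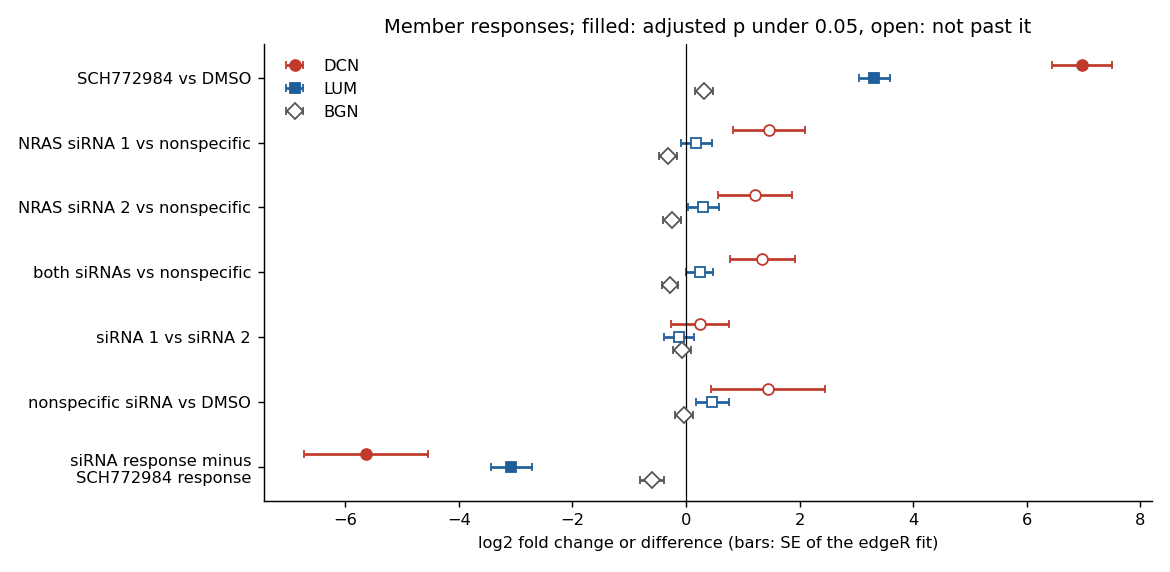
Log2 fold changes or differences of DCN, LUM and BGN in 7 comparisons, with SE from the edgeR fit; filled symbols have an adjusted p under 0.05. DCN (6.98) and LUM (3.32) are filled for SCH772984 against DMSO and for the difference of responses (-5.63 and -3.08), and BGN is open throughout.

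Other genes of related structure were read from a fixed list of 8, of which 4 were tested and 3 rose with SCH772984. Beside this, 13.2% of all tested genes rose and 14.8% fell. PODNL1, a podocan relative, had 19 and 16 counts with DMSO and 91 and 83 with SCH772984, and rose by 2.13 on the log2 scale (SE 0.34, adjusted p = 0.00160, edgeR). CHADL, a chondroadherin relative, had 5 and 0 counts and then 32 and 17, and rose by 3.06 (SE 0.85, adjusted p = 0.0237, edgeR). Like DCN it passed the filter on low counts only through the SCH772984 libraries, so it could enter the test only by being higher there. TSKU, tsukushi, rose by 0.33 (SE 0.11, adjusted p = 0.0438, edgeR), and PODN had a log2 fold change of 0.15 (SE 0.33, adjusted p = 0.778, edgeR). For nonspecific siRNA against DMSO the log2 differences were 0.25 (SE 0.11) for TSKU and 0.88 (SE 0.37) for PODNL1. They were -0.74 (SE 1.43) for CHADL and -0.17 (SE 0.35) for PODN, and none passed the threshold. Among the untested genes, ECM2 had 5 counts with DMSO and 19 with SCH772984 in sum, CHAD 3 and 5, NYX 1 and 1, and OPTC 0 and 0.

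Several members sit side by side in the genome, in the order EPYC, KERA, LUM, DCN on chromosome 12, OGN, OMD, ASPN, ECM2 on chromosome 9, and FMOD, PRELP, OPTC on chromosome 1, by RefSeq. The genes next to these runs were read for comparison, chosen by position after the members' values were seen. BTG1, beside DCN, had a log2 fold change of -0.16 with SCH772984 (SE 0.10, adjusted p = 0.256, edgeR). CENPP, a centromere gene whose span on the opposite strand contains OGN, OMD and ASPN, fell by 0.76 on the log2 scale (SE 0.14, adjusted p = 0.00377, edgeR). BTG2, beside FMOD, rose by 0.63 (SE 0.18, adjusted p = 0.0296, edgeR). HAUS7, beside BGN on the opposite strand, had a log2 fold change of -0.41 (SE 0.16, adjusted p = 0.0792, edgeR). None of the members shares an exon base with an overlapping gene in GENCODE 29 (0 bases for each of the 10).

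The collagens that small leucine-rich proteoglycans bind were read from a list of 16, all tested. With SCH772984, 9 rose and 0 fell (0 of 16 fell at an unadjusted p under 0.05 or in DESeq2), with a median log2 fold change of 0.69 against 0.0007 for all tested genes. Of all tested genes 13.2% rose and 14.8% fell with SCH772984. COL14A1 and COL12A1, fibril-associated collagens that bind decorin and fibromodulin in tendon and skin, rose by 3.77 (SE 0.24) and 2.54 (SE 0.14) on the log2 scale. COL5A1, a nucleator of fibrils, rose by 1.98 (SE 0.12) and COL11A2 by 1.77 (SE 0.22). With the mean of both NRAS siRNAs, 1 of 16 rose and 2 fell, with a median of 0.10 against -0.0054 for all genes, of which 2.97% rose and 4.99% fell. COL14A1 rose by 1.47 (SE 0.20), COL6A2 fell by 0.53 (SE 0.13) and COL1A1 fell by 0.39 (SE 0.08). In the test of the difference of responses, 9 of 16 were lower for the siRNAs, against 4.57% of all tested genes.

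Enzymes and partners that process fibrils gave a mixed picture among 24 tested genes, of which 7 rose and 5 fell with SCH772984 (median 0.27), where 13.2% of all tested genes rose and 14.8% fell. TLL1, a protease that cleaves procollagens, rose by 3.03 (SE 0.27), COMP, a matrix protein of cartilage and tendon, by 1.75 (SE 0.38), ADAMTS2, an N-propeptidase, by 1.32 (SE 0.14) and LOXL1, a crosslinking oxidase, by 1.15 (SE 0.15). With the mean of both siRNAs 1 rose and 4 fell (median -0.21), where 2.97% of all tested genes rose and 4.99% fell. TLL1 rose by 0.97 (SE 0.26), while THBS2 fell by 0.73 (SE 0.19), LOXL3 by 0.72 (SE 0.09) and PLOD3, a lysyl hydroxylase, by 0.70 (SE 0.13). LOXL3 and PLOD3 were lower with SCH772984 too, with log2 fold changes of -0.85 and -0.92, whereas THBS2 had 0.58 there.

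The sugar chains were read from the enzymes that build them. Of 25 tested enzymes for the linker and for chondroitin and dermatan sulfate, the chains of decorin and biglycan, 8 rose and 2 fell with SCH772984, with a median of 0.12 (13.2% and 14.8% of all tested genes). CHST7, a sulfotransferase, rose by 1.06 (SE 0.19), CHPF, a chondroitin polymerising factor, by 0.88 (SE 0.18) and PAPSS1, which makes the sulfate donor, by 0.58 (SE 0.12), whereas UST, a uronyl sulfotransferase, fell by 1.31 (SE 0.22). Enzymes for keratan sulfate, the chain of lumican, fibromodulin and keratocan, numbered 7 tested, of which 1 rose and 4 fell, with a median of -0.52. The difference between these lists was not tested. The sulfotransferases CHST1, CHST2 and CHST6 fell by 2.11 (SE 0.26), 1.12 (SE 0.17) and 0.75 (SE 0.14), and B4GALT1, a galactosyltransferase with wider use, rose by 0.53 (SE 0.09). LUM rose in the same libraries, and no assay here measured the chains. With the mean of both NRAS siRNAs 3 of the 7 fell and 1 rose, where 4.99% of all tested genes fell and 2.97% rose. CHST1 fell by 1.14 (SE 0.20), CHST2 by 1.04 (SE 0.14) and CHST6 by 0.43 (SE 0.12, adjusted p = 0.0498, edgeR), and B4GALT1 rose by 0.40 (SE 0.08). For the difference of responses edgeR and DESeq2 each called 0 of these 7, where edgeR called 7.30% of all tested genes. At an unadjusted p under 0.05 each method had 1 of the 7.

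**Figure D5:**
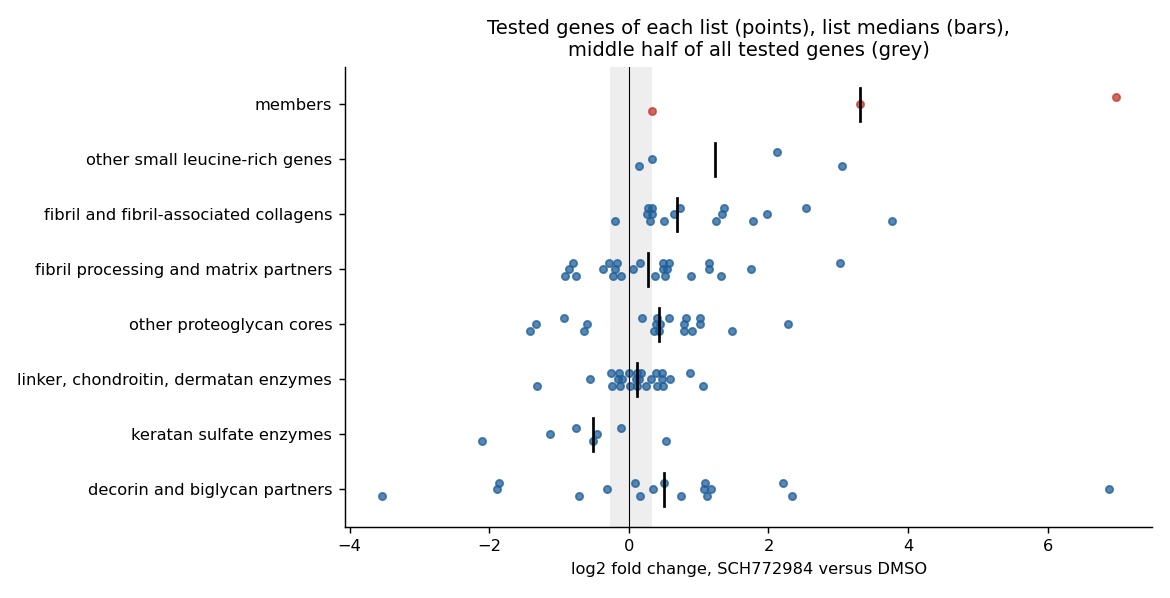
Log2 fold change of every tested gene of each list with SCH772984 against DMSO (points), list medians (bars) and the range from the 25th to the 75th percentile of all tested genes (grey). Collagens have a median of 0.69 and keratan sulfate enzymes one of -0.52; the vertical jitter of the points carries no meaning.

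Other proteoglycan cores, 20 tested, rose in 10 cases and fell in 3 with SCH772984 (median 0.44), against 13.2% and 14.8% of all tested genes. GPC5, a glypican, rose by 2.29 (SE 0.24) and HSPG2, perlecan, by 1.48 (SE 0.12), while SPOCK1, testican, fell by 1.42 (SE 0.27) and SDC1, syndecan, by 1.33 (SE 0.20). With the mean of both siRNAs 0 rose and 3 fell, where 2.97% of all tested genes rose and 4.99% fell. DESeq2 also called 0 upward, and each method had 2 upward at an unadjusted p under 0.05. SDC1 fell by 0.67 (SE 0.16), GPC1 by 0.61 (SE 0.14) and SDC3 by 0.56 (SE 0.09).

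Growth factors and receptors reported to bind decorin or biglycan were 17 tested genes, of which 8 rose and 3 fell with SCH772984 (median 0.51), against 13.2% and 14.8% of all tested genes. IGF1, a growth factor, rose by 6.88 (SE 0.62), TGFB3 by 2.33 (SE 0.22) and BMP4 by 2.21 (SE 0.19), and KDR, a VEGF receptor, fell by 3.54 (SE 0.74). With the mean of both siRNAs 5 rose and 0 fell, with a median of 0.07, where 2.97% of all tested genes rose and 4.99% fell. DESeq2 also called 0 downward. At an unadjusted p under 0.05 edgeR had 3 downward and DESeq2 had 1. IGF1 rose by 3.52 (SE 0.69), MET by 1.34 (SE 0.17), TGFB2 by 1.12 (SE 0.15) and TGFB3 by 1.11 (SE 0.20). The rise of MET is measured from a low control. With the nonspecific siRNA MET lay below DMSO by 1.09 (SE 0.19, adjusted p = 0.0485, edgeR), where 0.379% of tested genes were called. Of 10 genes known to be induced by TGF-beta, which decorin can hold in the matrix, 3 rose and 2 fell with SCH772984 (median 0.13), again beside 13.2% and 14.8%. TAGLN rose by 3.09 (SE 0.24) and CTGF by 1.12 (SE 0.22), while TGFBI fell by 2.20 (SE 0.12).

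Markers of cells that make these proteoglycans in tissue moved with SCH772984 as well. Beside the marker counts for SCH772984 that follow, 13.2% of all tested genes rose and 14.8% fell. The summed level of 12 fibroblast markers was 7519 to 8713 CPM with DMSO and 13800 to 14050 CPM with SCH772984, most of it from COL3A1 and COL1A1, and 5 of 8 tested markers rose and 1 fell; COL1A1 and COL3A1 also belong to the collagen list. PRRX1, a mesenchymal transcription factor, rose by 2.12 (SE 0.15) and PDGFRB by 1.26 (SE 0.13), while PDGFRA fell by 0.96 (SE 0.29). The defining fibroblast genes DPT, PI16 and TWIST2 had 0 to 3 counts in each of these 4 libraries, and MFAP5 had 1 to 7. A list of 13 tendon, cartilage and bone markers summed to 1074 to 1127 CPM with DMSO and 581 to 655 CPM with SCH772984, with 4 of 10 tested markers higher and 3 lower. Most of the DMSO sum was SPP1, with a mean of 698 CPM there and 58.3 CPM with SCH772984. COL2A1 went the other way, from a mean of 131 to 312 CPM. In that list IBSP, a bone sialoprotein, rose by 7.43 (SE 0.31) and TNMD, of tendon, by 2.99 (SE 0.47), while SPP1, osteopontin, fell by 3.58 (SE 0.18). IBSP and TNMD passed the filter only through the SCH772984 libraries. The 18 muscle markers summed to 113 to 130 CPM with DMSO and 146.5 to 148.9 CPM with SCH772984, and of 10 tested 4 rose and 1 fell. TNNI1, a slow muscle troponin, rose by 5.70 (SE 0.33), CDH15 by 3.54 (SE 0.44) and ACTC1, cardiac actin, by 3.47 (SE 0.61), while CHRNA1, an acetylcholine receptor subunit, fell by 3.45 (SE 0.66); ACTC1 and TNNT2, the other riser, passed the filter only through the SCH772984 libraries. The 12 markers of epithelial, blood and endothelial cells summed to 238 to 354 CPM with DMSO and 230 to 369 CPM with SCH772984. Most of this was KRT18, with means of 270 and 268 CPM. Of 5 tested, 1 rose and 1 fell: VWF rose by 2.04 (SE 0.51), passing the filter only through the SCH772984 libraries, and CD68 fell by 0.94 (SE 0.27). With the mean of both NRAS siRNAs, 2.97% of all tested genes rose and 4.99% fell. Among fibroblast markers PRRX1 rose by 0.94 (SE 0.13) and COL1A1 fell by 0.39 (SE 0.08). ALPL rose by 0.54 (SE 0.12) among tendon, cartilage and bone markers. In that list EGR2 fell by 1.10 (SE 0.30), SPP1 by 0.70 (SE 0.135) and SOX9 by 0.69 (SE 0.09). The muscle marker CHRNA1 fell by 1.88 (SE 0.42), which DESeq2 did not call. The part of these marker shifts in the DCN and LUM result was not tested.

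Genes whose profile over the 10 libraries was most like that of each tested member were taken by Pearson's r of log2 CPM among 13583 genes, as a description. DCN was closest to SLC7A10 (r = 0.987), FAM69A (0.985), GPC5 (0.985), COL5A1 (0.985) and GNAI1 (0.983). LUM was closest to GPC5 (0.985), FAM69A (0.985), ZNF238 (0.984), DCN (0.982) and PDE11A (0.981). BGN stood apart, at 0.557 with DCN and 0.598 with LUM, and was closest to GALK1 (0.969), FKBP8 (0.963), DGKQ (0.962), BTBD2 (0.960) and MXD3 (0.954). An r above 0.9 was reached by 387 genes with DCN, 319 with LUM and 90 with BGN. The points share the 2 SCH772984 libraries, in which DCN and LUM are far from the other 8, so any gene that moves in those libraries scores high.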

How the data were processed

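Whole-number counts of reads per gene symbol were deposited by the authors for 10 libraries, and they are not normalised. TruSeq stranded mRNA libraries were made, per the labels' protocols, and reads went through TopHat2, HTSeq, bcl2fastq and SAMtools on hg19 (GRCh37), per the submitters' processing notes. Tool versions, gene models and the strandedness used in counting are not given here, and overlapping genes on opposite strands may therefore share reads. The 5 lines that name no gene (38.3 to 39.5% of reads in a library) were left out. Groups and replicates were taken from the sample titles.

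The test was edgeR's quasi-likelihood test (version 4.0.16 under R 4.3.3, glmQLFit and glmQLFTest), with TMM scaling and filterByExpr at a minimum count of 10, which left 14761 of 23228 genes. A common fit of all 10 libraries without covariates (5 residual degrees of freedom) was used, and p-values were adjusted by Benjamini-Hochberg over all tested genes at 0.05. The simulated check for SCH772984 against DMSO, on 14761 genes, recovered 82% of genes raised by 1 and 100% of genes raised by 2 on the log2 scale. It gave every gene the same spread around its mean over all 10 libraries. It therefore does not cover genes with a wider spread, or genes near 0 in a group such as DCN. Replicates of a group correlated at 0.990 to 0.993 across genes on log2 CPM, and in no group did they match within sampling noise. CPM uses TMM-scaled library sizes; levels per kilobase use the median GENCODE 29 principal transcript length, matched for 84.9% of genes. Ratios of summed counts carry exact (Clopper-Pearson) intervals at 95%, which like the limit of 3 counts for a library at 0 cover counting error only. Promoters and gene order are from RefSeq (GRCh38.p14), another build than that of the counts.

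The members and lists were chosen with earlier results of these data known, and lists are described by counts and medians. Named genes are all members, NRAS, the 8 other small leucine-rich genes and up to 4 called genes with the greatest absolute change per list and comparison; for likeness, 5 genes per tested member with at least 1 CPM in the highest group (prior count 2). Alternatives were RLE and upper-quartile scaling, DESeq2 1.42.0, no filter, only the groups compared, a replicate block and each library left out. A gene of the TGF-beta list is not reported here by name.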

Additional observations from a re-analysis of the deposited data

Results flagged for a closer look

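The difference between the mean response to both NRAS siRNAs and the response to SCH772984 passed edgeR's quasi-likelihood test for 2 members. For DCN it was -5.632 on the log2 scale (SE 1.09, adjusted p = 0.0173). DCN entered the test only through its high counts with SCH772984, so a difference of this sign was favoured in advance. All 4 NRAS siRNA libraries (0.214 to 0.422 CPM) lay above both nonspecific siRNA libraries. This held for both libraries of NRAS siRNA 1 in 22.0% of tested genes and of NRAS siRNA 2 in 26.4%. Both SCH772984 libraries (5.33 and 6.11 CPM) lay above both DMSO libraries (0.0880 and 0 CPM), as for 32.8% of tested genes. DCN did not pass the test for either siRNA, and the difference lost its call without nonspecific siRNA replicate 1 (adjusted p = 0.0781) or replicate 2 (0.0600). For LUM the difference was -3.077 (SE 0.36, adjusted p = 0.00144). LUM moved from a mean of 2.21 to 21.9 CPM with the inhibitor, and from 3.03 to 3.43 and 3.73 CPM with the siRNAs, where the groups overlapped.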

How the results depend on the processing

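For SCH772984 against DMSO, leaving out 1 library gave 1875 to 3298 genes against 4128, the lowest without SCH772984 replicate 1 and next 1924 without DMSO replicate 2. Upper-quartile scaling turned the split from 1948 higher and 2180 lower to 2210 and 1725, and no filter to 2257 and 2041. NRAS siRNA 1 gave 305 genes, 763 with DESeq2, 785 with no filter, 45 with only the groups compared and 28 to 165 with 1 library left out. NRAS siRNA 2 gave 949, 1651 with DESeq2, 1690 with no filter, 225 with only its groups and 53 to 1144 with 1 library left out. The mean of both gave 1174, 1765 with no filter, 425 with only its groups and 131 to 1491 with 1 library left out. NRAS siRNA 1 against 2 gave 63, 144 with DESeq2, 28 with only its groups and 6 to 18 with 1 library left out. The control groups gave 56, 370 with DESeq2, 283 with no filter, 12 with only these groups and 6 to 12 with 1 library left out. The difference of responses gave 1078, and 343 to 915 with 1 library left out, where 1 or 2 members passed, 1 without either nonspecific siRNA library. The cause was not tested.

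The labels give replicate numbers 1 and 2 in each group but do not say that they pair libraries, and replicate differences correlated at 0.074 to 0.448 across the 10 pairs of groups. With the replicate block the counts were 1280, 2815 and 2846 for NRAS siRNA 1, 2 and their mean, 120 between the siRNAs, 446 between the controls and 2379 for the difference of responses.

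Of 229 values of DCN, LUM and BGN under alternatives, 216 kept direction and side of the threshold, 3 crossed it to pass and 2 to fail. The 8 that changed sign all came from leaving out 1 library in comparisons that did not pass. Their ranges over the libraries left out were -0.0024 to 0.40 for LUM with NRAS siRNA 1, and between the siRNAs -0.17 to 0.65 for DCN, -0.30 to 0.0376 for LUM and -0.22 to 0.0601 for BGN. BGN between the controls ranged from -0.23 to 0.14. A group left with 1 library was assumed to vary like the others. For the 7 scarce members, depth limits what can be said to their counts.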
